A study of Mus musculus with 8 samples.

Results

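The genes described here are 10 ubiquitin ligases linked to muscle atrophy, *Fbxo32*, *Trim63*, *Fbxo30*, *Fbxo31*, *Fbxo21*, *Fbxo40*, *Trim54*, *Trim55*, *Traf6* and *Nedd4*. They were taken by gene symbol from the 12551 genes of a table of RNA sequencing counts, and all 10 were found there once. The RNA came from whole tibialis anterior (TA) muscles, a fast-twitch muscle of the lower leg, of male mice at 7 weeks of age. Muscles of 4 WT mice were compared with those of 4 littermates homozygous for a null allele of Klotho (KL-/-), on a mixed genetic background. The Klotho deletion is systemic, so that muscle and every other organ of the KL-/- mice lacked the gene, and an effect on the muscle cannot be told apart from one that passes through another organ. The comparison asks whether transcripts of the degradation machinery differ in muscle when Klotho is absent.

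Ubiquitin ligases choose which proteins a cell destroys. An E1 enzyme activates ubiquitin, an E2 enzyme carries it, and an E3 ligase transfers it to a substrate, which the proteasome then degrades if the chain has the right linkage. The transcripts of 2 muscle ligases, atrogin-1 (*Fbxo32*) and MuRF1 (*Trim63*), rise in many models of fasting, denervation and disuse, and for this reason are widely used as readouts of atrophy. FOXO transcription factors drive both genes, and several further ligases described later share part of this control.

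Counts on genes summed to between 20860262 and 29273758 per library, and a member was counted between 334 and 17845 times in any library. Counting alone gives a coefficient of variation of 0.817% for *Nedd4*, the member with the most counts, and of 4.68% for *Fbxo21*, the one with the fewest. Values are CPM, the counts of a gene relative to the TMM-scaled total of its library, given for replicates 1 to 4 of each genotype and as mean ± SD with n = 4 mice. The test was edgeR's quasi-likelihood test, fitted on the whole table, and FDR is the Benjamini-Hochberg adjusted p over all 12551 genes, with 0.05 as the threshold. Fold changes are KL-/- over WT on the log2 scale, ± their standard error (SE). *Kl* itself was not analysed here, and the genotypes rest on the labels. KL-/- replicate 3 was the 1 library with a batch date other than that of the remaining 7, and with a single library its date cannot be told apart from the mouse. The 8 myofibre markers (*Acta1*, *Ckm*, *Myh4* and others) made up 147846 to 169255 CPM in WT and 172475 to 217265 CPM in KL-/- libraries, and none of the 8 was absent.

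Of the 10 ligases, 2 were lower in KL-/- muscle and 0 were higher at this threshold, while 6.67% of all genes were lower, 7.35% higher and 14.0% called in either direction. The 2 that fell were *Fbxo40* and *Fbxo30*, both substrate adaptors of SCF ubiquitin ligases. *Fbxo32* and *Trim63* did not pass the test. The genotypes did not overlap in 2 of the 10 members (20.0%), again *Fbxo30* and *Fbxo40*, and in 19.7% of all genes. In both, all KL-/- values were below all WT values, which held for 9.47% of all genes. The median log2 fold change was 0.072 over the members and −0.016 over all genes tested. When libraries were scaled by their totals alone, the median of all genes moved by −0.12, and the calls over the table went from 922 higher and 837 lower to 492 higher and 2127 lower. In bulk muscle, fewer cells of a type and less RNA per cell cannot be told apart in any of these values.

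**Figure D1:**
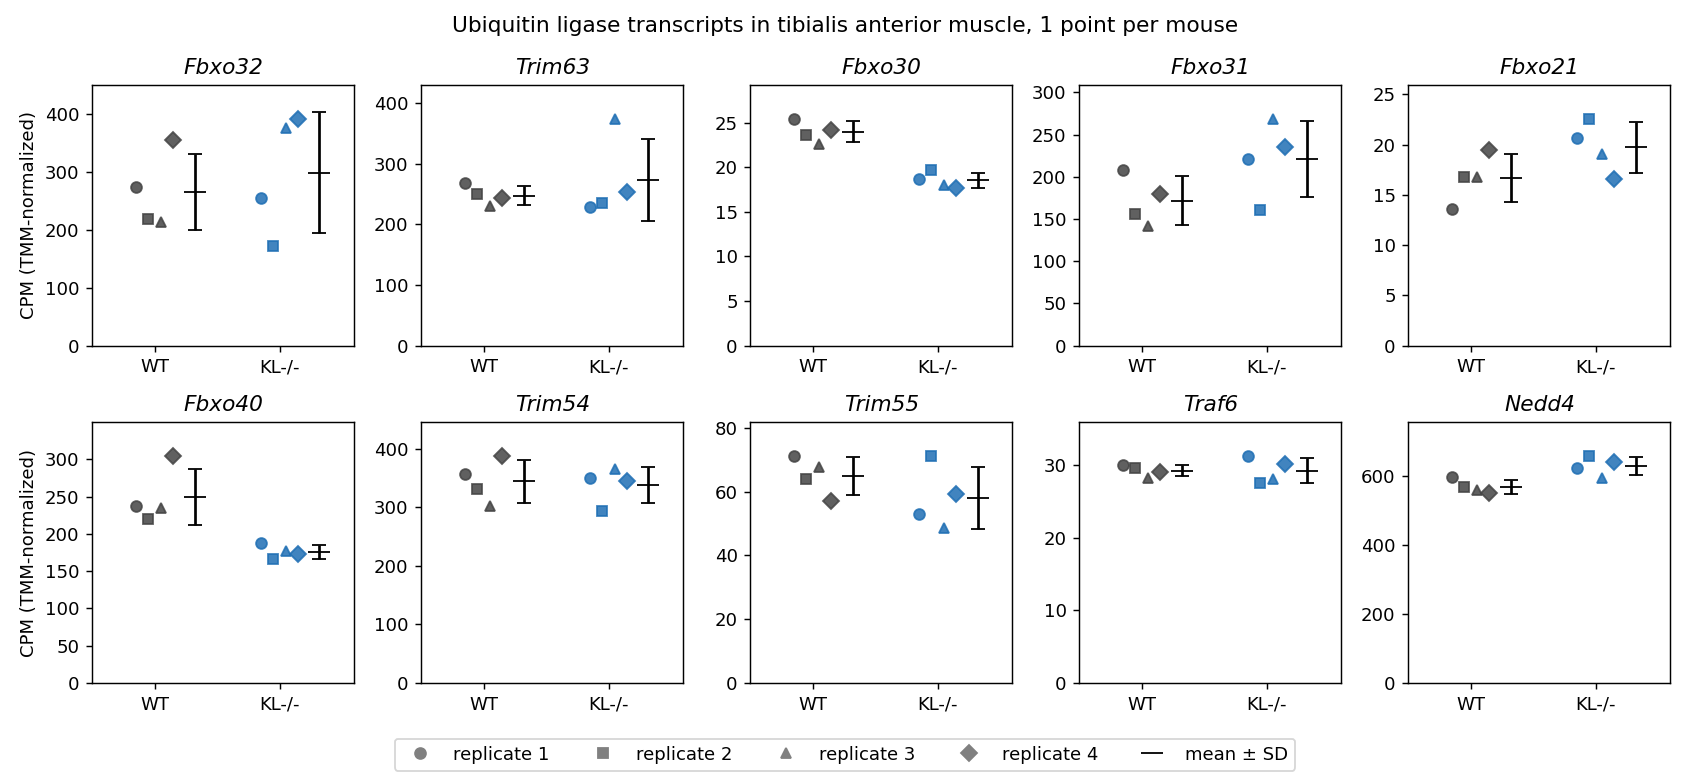
TMM-normalized CPM (y axes, from 0) of the 10 ligases in each of the 4 WT (gray) and 4 KL-/- (blue) TA muscles, with mean ± SD beside the points and marker shapes for replicate numbers. *Fbxo30* and *Fbxo40* are the panels in which every KL-/- muscle lies below every WT muscle, and *Fbxo32* has the widest scatter.

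*Fbxo40* encodes a muscle-restricted F-box protein that is known to target the insulin receptor substrate IRS1 for degradation, and *Fbxo30* encodes MUSA1, an F-box protein of denervated and fasted muscle that BMP signaling restrains. The promoter window that RefSeq gives for the counted start of *Fbxo40* (GRCm38.p6, the same assembly as mm10, 250 bases before to 50 after the start) is shown, as that of the member with the larger change, next to that of *Trim63*, for which a FOXO site is a familiar feature. Each is written 5′ to 3′ on the strand of the gene, with matches to 4 motifs in capitals. The motifs searched on both strands were the FOXO site GTAAACA, the MEF2 site CTANNNNTAG, the E-box CAGCTG bound by myogenic factors and the glucocorticoid receptor hexamer AGAACA.
Fbxo40, chr16:36979087-36979386, minus strand: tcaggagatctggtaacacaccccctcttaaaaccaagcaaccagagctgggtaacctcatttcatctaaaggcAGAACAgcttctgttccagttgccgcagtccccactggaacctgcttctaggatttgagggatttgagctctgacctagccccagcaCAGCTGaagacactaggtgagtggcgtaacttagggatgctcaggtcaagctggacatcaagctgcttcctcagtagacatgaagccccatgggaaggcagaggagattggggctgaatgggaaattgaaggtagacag
Trim63, chr4:134314870-134315169, plus strand: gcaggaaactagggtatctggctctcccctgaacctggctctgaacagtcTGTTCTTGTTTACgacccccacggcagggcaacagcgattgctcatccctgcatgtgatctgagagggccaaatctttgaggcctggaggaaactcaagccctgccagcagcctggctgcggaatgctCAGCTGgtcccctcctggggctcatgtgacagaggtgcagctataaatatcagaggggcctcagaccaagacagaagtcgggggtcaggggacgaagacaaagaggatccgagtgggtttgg

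This *Fbxo40* window held an E-box 89 bases and a glucocorticoid hexamer 176 bases before the start. RefSeq gives a second *Fbxo40* window (chr16:36990418-36990717, minus strand), whose start is not the edge of a counted exon. That window held 2 E-boxes, 81 and 53 bases before its start, and no match to the other motifs. The *Fbxo30* window (chr10:11281337-11281636, plus strand) is not printed because it overlaps the first exon of another transcript of the gene. It held none of the 4 motifs and was 79.7% G or C, against a median of 52.7% over all promoters. The *Trim63* window held a FOXO site at 194 and an E-box at 72 bases before the start, and a hexamer at 200 bases that abuts the FOXO site. Over 32851 RefSeq promoters of this length, the FOXO letters occurred in 3.65%, the MEF2 letters in 3.69%, the E-box in 16.3% and the hexamer in 19.0%. Among the 10 windows found for 8 of the members, 1 held the FOXO letters, 0 the MEF2 letters, 5 the E-box and 4 the hexamer. These matches describe letters only. *Fbxo32* and *Trim55* had no entry.

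*Fbxo40* (chromosome 16, 36966073 to 36979136, minus strand, 3 exons) stood at 237.0, 219.7, 235.3 and 304.2 CPM in the WT and 187.1, 165.8, 176.8 and 173.2 CPM in the KL-/- muscles. All KL-/- values were below all WT values, and they lay closer together (coefficient of variation 5.05% against 15.1%). *Fbxo40* fell by 0.50 ± 0.099 on the log2 scale, or by 29.4%, from 249 ± 37.6 to 176 ± 8.87 CPM (FDR = 0.0131). WT replicate 4 was the highest of the 8. Without it the log2 fold change was −0.39 (FDR = 0.0143), the smallest change among the 8 fits that left out 1 mouse.

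*Fbxo30* (chromosome 10, 11281330 to 11297969, plus strand, 4 exons) was far less abundant, at 25.4, 23.6, 22.6 and 24.2 CPM in the WT and 18.7, 19.7, 18.1 and 17.7 CPM in the KL-/- muscles. Again no KL-/- muscle reached the lowest WT value, and both genotypes were tight, with coefficients of variation of 4.93% and 4.66% where counting alone gives 4.34%. *Fbxo30* fell by 0.37 ± 0.068 on the log2 scale, or by 22.8%, from 24.0 ± 1.18 to 18.5 ± 0.862 CPM (FDR = 0.0102). Leaving out any 1 mouse kept the log2 fold change between −0.40 and −0.34. Both calls were kept without KL-/- replicate 3.

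Some marker transcripts of other cells in the muscle were called as well. Over all genes 14.0% were called, 6.67% lower and 7.35% higher. Of 6 fibroblast and fibro-adipogenic progenitor markers, 3 fell, and their summed level was 732 to 2879 CPM in WT and 374 to 1275 CPM in KL-/- muscles. Of 4 tendon markers, 2 fell, with sums of 179 to 223 CPM and 54.8 to 141 CPM. Of 7 macrophage markers 1 fell (14.3%, where 6.67% of all genes were lower), with overlapping sums of 32.3 to 77.2 and 25.9 to 49.1 CPM. The median log2 fold change of these 7 was −0.88, and only 1 of them had a positive value. Of 5 endothelial markers 1 fell (20.0%), and the sums, 394 to 587 and 359 to 395 CPM, overlapped too. In contrast, 3 of 5 Schwann cell markers rose (31.2 to 56.7 and 63.1 to 81.4 CPM). None of the 8 myofibre, 5 pericyte and smooth muscle or 3 satellite cell markers passed the test. The myofibre sums, 147846 to 169255 CPM in WT and 172475 to 217265 CPM in KL-/- muscles, still did not overlap. Of these 8 markers 7 had a positive log2 fold change, and their median was 0.25. The part of these shifts in the fall of *Fbxo40* and *Fbxo30* was not tested.

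*Fbxo32* (chromosome 15, 58175879 to 58214892, minus strand, 9 exons) showed the widest scatter among mice, and part of its exon sequence overlaps the antisense gene *Gm15943*, which was not counted. Its CPM was 274.2, 217.4, 213.6 and 353.7 in WT and 254.8, 170.8, 374.9 and 390.9 in KL-/- muscles, which include both the lowest and the highest of the 8 values. The log2 fold change was 0.17 ± 0.26 (FDR = 0.679), and an interval of 2 SE on either side ran from −0.34 to 0.68. With 1 mouse left out it lay between 0.011 (without KL-/- replicate 4) and 0.37 (without KL-/- replicate 2). The 2 values of the highest KL-/- muscles were close to that of WT replicate 4, and the low KL-/- replicate 2 was below every WT muscle.

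*Trim63* (chromosome 4, 134315120 to 134329629, plus strand, 9 exons) stood at 267.9, 249.4, 229.9 and 243.1 CPM in WT and 229.3, 235.2, 374.0 and 253.8 CPM in KL-/- muscles. Only KL-/- replicate 3, whose batch date differs, lay above the WT range. The log2 fold change was 0.14 ± 0.15 (FDR = 0.534), with an interval from −0.15 to 0.43. Without that library it was −0.0485. The coefficient of variation was 6.40% in WT and 24.9% in KL-/- muscle, and over the members it was larger in KL-/- muscle in 6 of 10.

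**Figure D2:**
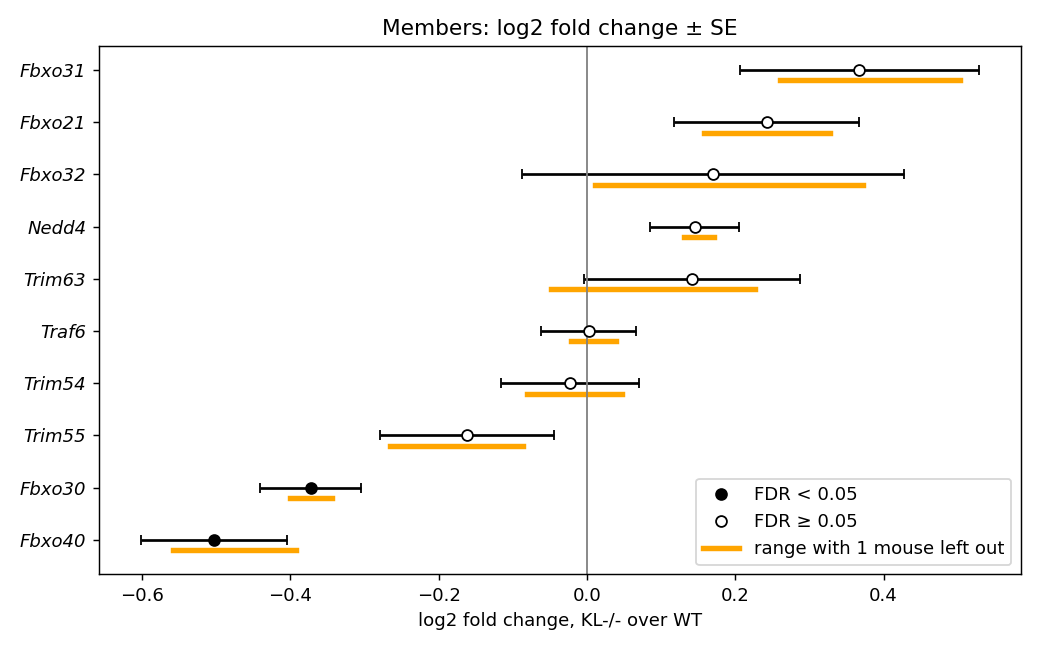
Log2 fold change of each ligase, KL-/- over WT (x axis), with its standard error (black bars) and the range over the 8 fits that left out 1 mouse (orange). Filled points passed an FDR of 0.05, which only *Fbxo30* and *Fbxo40* did, and the ranges of *Trim63*, *Traf6* and *Trim54* cross 0.

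The other 2 muscle RING finger genes encode relatives of MuRF1. *Trim54*, MuRF3 (chromosome 5, 31116612 to 31137626, plus strand, 9 exons), was at 355.8, 330.5, 301.9 and 386.8 CPM in WT and at 349.6, 294.0, 365.1 and 344.1 CPM in KL-/- muscle. The genotypes overlapped almost completely, with a log2 fold change of −0.023 ± 0.093 (FDR = 0.884). The interval of 2 SE, from −0.21 to 0.16, does not reach the change seen in *Fbxo40*. Of its longest coding transcript, 19.1% of the 50-base stretches also occur in *Gm15469*, which lies antisense to it and is not among the genes counted, and whether strand was used in counting is not stated, so reads of the 2 genes cannot be told apart where they overlap.

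*Trim55*, MuRF2 (chromosome 3, 19644460 to 19691599, plus strand, 10 exons), was at 71.1, 64.0, 67.6 and 57.0 CPM in WT and at 53.0, 71.1, 48.7 and 59.4 CPM in KL-/- muscle. KL-/- replicate 2 equaled the highest WT muscle to the first decimal, and the log2 fold change of −0.16 ± 0.12 did not pass the test (FDR = 0.364). Per kilobase of exon, *Trim63* made up 33.5 ± 1.56% of the sum of the 3 MuRF genes in WT and 36.0 ± 4.66% in KL-/- muscle. The share of *Trim54* was 57.2 ± 2.66% and 55.7 ± 3.84%, and that of *Trim55* 9.32 ± 1.20% and 8.33 ± 2.19%. These shares differed between genotypes by less than the SD of the KL-/- muscles. In KL-/- replicate 3 the *Trim63* share reached 42.8%.

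*Fbxo31* and *Fbxo21* are F-box genes outside the classical pair. *Fbxo31* (chromosome 8, 121549443 to 121578806, minus strand, 9 exons), whose product is known to target cyclin D1, stood at 208.5, 156.0, 142.1 and 179.4 CPM in WT and at 220.7, 160.4, 268.6 and 235.1 CPM in KL-/- muscle. All KL-/- muscles but replicate 2 lay above all WT muscles. The log2 fold change of 0.37 ± 0.16 was nearly as large in size as that of *Fbxo30* but did not pass the test (FDR = 0.150). Leaving out KL-/- replicate 2 raised it to 0.50 (FDR = 0.0248).

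*Fbxo21*, SMART (chromosome 5, 117976770 to 118010191, plus strand, 12 exons), is a FOXO target in denervated muscle. It was at 13.6, 16.7, 16.8 and 19.5 CPM in WT and at 20.7, 22.6, 19.1 and 16.6 CPM in KL-/- muscle, with overlap in both directions. The log2 fold change was 0.24 ± 0.13 (FDR = 0.212).

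The last pair of members differs in how ubiquitin is passed on. *Traf6* (chromosome 2, 101678420 to 101701668, plus strand, 8 exons) encodes a RING ligase that builds signaling chains in the NF-κB pathway. It varied least among WT mice (2.64%, where counting alone gives 3.69%), at 30.0, 29.6, 28.3 and 29.0 CPM in WT against 31.2, 27.5, 28.1 and 30.2 CPM in KL-/- muscle. The log2 fold change was 0.0021 ± 0.064 (FDR = 0.986), and the interval of 2 SE, from −0.13 to 0.13, was among the narrowest, although its sign flipped to −0.12 when library totals replaced the TMM factors.

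*Nedd4* (chromosome 9, 72662347 to 72749848, plus strand, 29 exons) encodes a HECT ligase, a class that takes ubiquitin onto itself before passing it on. It was the member with the highest CPM, at 596.2, 566.7, 557.5 and 550.7 CPM in WT and at 622.3, 656.4, 594.3 and 638.8 CPM in KL-/- muscle. The genotypes were nearly separate, and only KL-/- replicate 3 fell short, by a small margin, of WT replicate 1. The log2 fold change of 0.15 ± 0.060 did not pass edgeR's quasi-likelihood test (FDR = 0.128), whereas DESeq2 called it (FDR = 0.0265). With library totals it was 0.028.

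**Figure D3:**
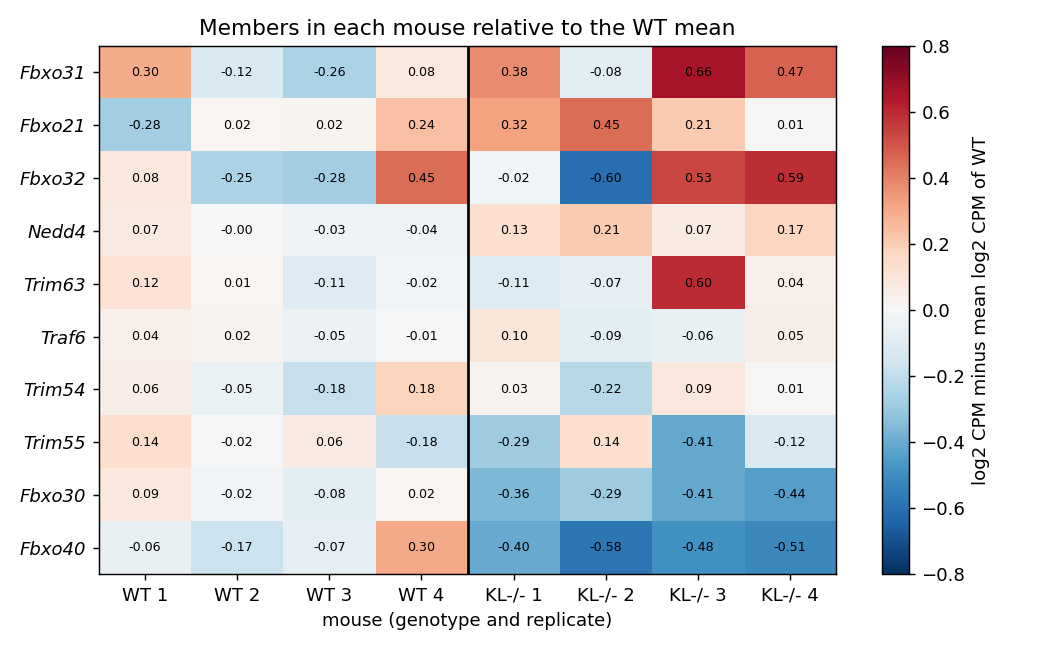
Log2 CPM of each ligase in each mouse minus the mean log2 CPM of the 4 WT mice (color and printed value; red above, blue below). The bottom 2 genes, *Fbxo30* and *Fbxo40*, are blue in all 4 KL-/- mice, while *Fbxo32* and *Fbxo31* alternate between blue in KL-/- replicate 2 and red in KL-/- replicates 3 and 4.

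The KL-/- muscles were not alike across the set. KL-/- replicate 2 had the lowest KL-/- value of *Fbxo32*, *Fbxo31*, *Fbxo40*, *Trim54* and *Traf6* and the highest of *Fbxo30*, *Fbxo21*, *Trim55* and *Nedd4*. KL-/- replicate 3 had the highest value of *Trim63*, *Fbxo31* and *Trim54*. Among WT muscles, replicate 1 was highest in 6 members and replicate 3 lowest in 6. Summed per kilobase over the 10 members, the ligases came to 685 ± 52.5 in WT and 689 ± 64.3 in KL-/- muscle, in CPM per kilobase, a difference far below the SD.

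Between genes, levels are comparable only per kilobase of exon. On that scale, as means over the 8 mice in CPM per kilobase, *Trim54* was highest at 223 ± 20.4 (SD), followed by *Trim63* at 138 ± 25.3, *Nedd4* at 109 ± 7.06 and *Fbxo40* at 84.3 ± 18.5. *Fbxo31* (45.1 ± 10.1), *Fbxo32* (40.6 ± 11.9) and *Trim55* (34.4 ± 4.68) formed a middle group, and *Traf6* (4.73 ± 0.203), *Fbxo21* (4.66 ± 0.718) and *Fbxo30* (4.16 ± 0.600) a low one. *Trim54* exceeded *Trim63*, *Trim63* exceeded *Nedd4*, *Fbxo40* exceeded *Fbxo31* and *Trim55* exceeded *Traf6* in 8 of 8 mice, and *Nedd4* exceeded *Fbxo40* in 7. Within the middle group *Fbxo31* was above *Fbxo32* in 6 mice and *Fbxo32* above *Trim55* in 4, so that these neighbors did not differ beyond their spread. The same held for the low group, in which *Traf6* was above *Fbxo21* in 4 mice and *Fbxo21* above *Fbxo30* in 5. *Fbxo40* was counted on a model of 2518 bases, whereas its longest coding transcript in GENCODE M21 has 5137, part of which was not counted. Dividing the same counts by that length gave 41.3, and *Fbxo40* changed places with *Fbxo31*. As the counts do not cover that length, the 41.3 is not a second estimate of the level. *Fbxo30* was the ninth in WT muscle and the lowest of all in KL-/- muscle.

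The surrounding machinery was read from lists of genes in the same fit. Of 26 other ubiquitin ligases of muscle, 0 rose and 5 fell (19.2% called, against 14.0% of all genes), with a list median of 0.0056. With library totals 0 rose and 7 fell, while over all genes that scaling called 492 higher and 2127 lower. *Kbtbd13*, a CUL3 adaptor mutated in nemaline myopathy, was at 48.3, 46.2, 49.0 and 43.4 CPM in WT and at 29.0, 22.7, 22.8 and 30.3 CPM in KL-/- muscle (log2 fold change −0.83 ± 0.11, FDR = 0.0031). *Asb2*, a CUL5 adaptor that restrains muscle mass when overexpressed, fell by 0.83 ± 0.15 on the log2 scale, from 767 ± 147 to 433 ± 57.7 CPM (FDR = 0.0100). In neither gene did the genotypes overlap. *Asb15*, of the same family (−0.75, FDR = 0.0237), *Klhl40*, which stabilizes thin filament proteins (−0.32, FDR = 0.0253), and *Trim32*, a ligase of desmin and a limb-girdle dystrophy gene (−0.33, FDR = 0.0498, but 0.0504 with RLE factors), fell as well.

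Of 12 genes of the SCF core and of neddylation, 3 were higher and 0 lower (25% called, against 14.0% of all genes). They were *Cul3*, a cullin scaffold other than that of SCF ligases (log2 fold change 0.31, FDR = 0.0424), *Cops5*, the deneddylating subunit of the COP9 signalosome (0.30, FDR = 0.0225), and *Ube2m*, the E2 for NEDD8 (0.23, FDR = 0.0421). The 5 Fbxo members plug into the SCF core itself. Its genes *Skp1a* (0.16, FDR = 0.0796), *Cul1* (0.20, FDR = 0.0536) and *Rbx1* (0.082, FDR = 0.422) were not called. The list median was 0.17. When library totals replaced TMM factors, 0 of the 12 were called.

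Of 23 ubiquitin, E1 and E2 genes, 5 rose and 2 fell, with a median of 0.095 (1 and 4 with library totals). This was 30.4% called, against 14.0% of all genes. *Rps27a*, a ubiquitin gene fused to a ribosomal protein, rose from 96.9 ± 2.78 to 133 ± 3.05 CPM (log2 fold change 0.46 ± 0.049, FDR = 0.0023). Beside it, *Ubb*, a polyubiquitin gene (0.35, FDR = 0.0294), and *Ube2e1*, an E2 (0.21, FDR = 0.0429), had the smallest p, though neither was called with library totals. *Uba6*, the alternative E1, fell (−0.62, FDR = 0.0127), as did the E2 gene *Ube2h* (−0.24, FDR = 0.0321).

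Deubiquitinases remove what the ligases add. Of 16 such genes 5 rose and 0 fell (31.25% called, against 14.0% of all genes), although the list median was 0.012. With library totals 2 rose and 3 fell. *Otud1* had 24.1, 23.5, 13.2 and 23.7 CPM in WT and 36.4, 61.1, 36.9 and 48.4 CPM in KL-/- muscle (log2 fold change 1.11 ± 0.22, FDR = 0.0135). *Usp2* (0.60, FDR = 0.0254), *Uchl5*, a proteasome-bound enzyme (0.30, FDR = 0.0226), *Usp25* (0.24, FDR = 0.0496) and *Usp7* (0.23, FDR = 0.0402) rose by less, and the last 3 of these were not called with library totals.

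Of 25 transcription factors placed upstream of the ligases, 6 rose and 2 fell, with a median of 0.082 (3 and 4 with library totals). With TMM factors 8 of the 25 were thus called, against 14.0% of all genes. *Cebpd*, a glucocorticoid- and cytokine-responsive factor, was at 8.5, 10.1, 6.8 and 5.4 CPM in WT and at 17.3, 21.0, 64.9 and 55.5 CPM in KL-/- muscle (log2 fold change 2.37 ± 0.43, FDR = 0.0103). Its relative *Cebpb* rose (0.98, FDR = 0.0127), and both were highest in KL-/- replicate 3. Among the FOXO genes *Foxo4* rose (0.61, FDR = 0.0131) and *Foxo6* fell (−0.91, FDR = 0.0158). *Foxo1* (0.32 ± 0.19, FDR = 0.277) and *Foxo3* (0.37 ± 0.15, FDR = 0.122), the factors best known to act on *Fbxo32* and *Trim63*, did not pass the test. *Klf15*, a glucocorticoid-induced factor, rose (0.73, FDR = 0.0488, but 0.0623 with library totals) and *Smad3*, which acts below myostatin, fell (−0.43, FDR = 0.0165). The glucocorticoid receptor gene *Nr3c1* (0.037, FDR = 0.764) and *Myog* (0.31, FDR = 0.637) were not called.

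**Figure D4:**
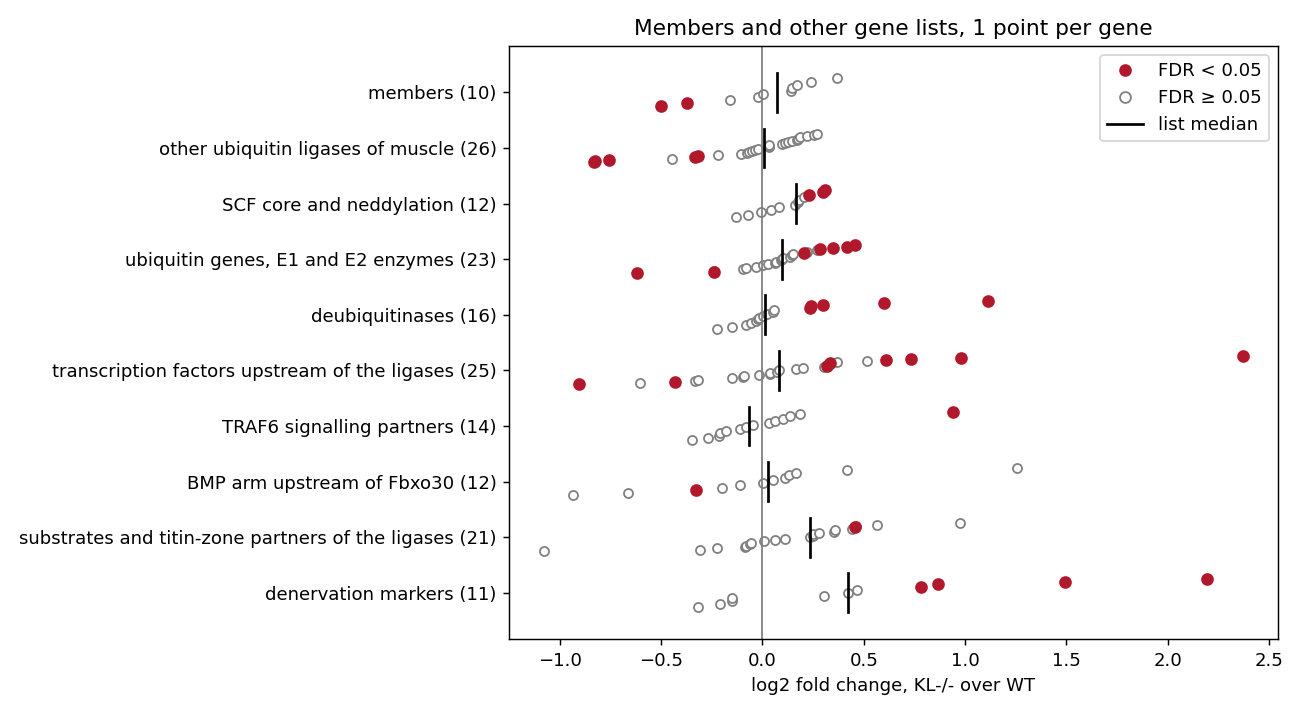
Log2 fold change, KL-/- over WT (x axis), of every gene in the ligase set and in 9 other lists (1 row per list, number of genes in parentheses), with filled red points for FDR under 0.05 and a black bar at each list's median. The called ligases and other muscle ligases lie to the left of 0, and the called deubiquitinases and denervation markers to the right.

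Upstream and downstream neighbors of single members were looked at in turn. The share called was 8.33% of the BMP arm, 7.14% of the TRAF6 partners and 4.76% of the substrates, each below the 14.0% of all genes. Of 12 genes of the BMP arm, which restrains *Fbxo30*, only the receptor gene *Acvr1* was called, and it fell (−0.33, FDR = 0.0166). With library totals 5 of the 12 were called, all lower, while 2127 of the 12551 genes were called lower with that scaling. Of 14 signaling partners of TRAF6, *Nfkbia*, a target and inhibitor of NF-κB, rose (0.94, FDR = 0.0254) and the other 13 did not pass. Of 21 substrates and titin-zone partners, *Eif3f*, a translation factor degraded through atrogin-1, rose (0.46, FDR = 0.0193), with a list median of 0.24. Chosen after its values were seen, *Irs1*, the substrate of FBXO40, averaged 119 ± 15.4 CPM in WT against 112 ± 79.7 CPM in KL-/- muscle (FDR = 0.895), and ranged from 50.1 to 228.9 CPM among the KL-/- mice. *Ccnd1*, the FBXO31 substrate cyclin D1 and likewise chosen after the fact, had a log2 fold change of −1.08 ± 0.32 that missed the threshold (FDR = 0.0534).

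Denervation raises *Fbxo32*, *Trim63*, *Fbxo30* and *Fbxo21* in textbook models. Of 11 other transcripts that mark it 4 rose and 0 fell (36.4% called, against 14.0% of all genes), with a median of 0.42. *Sln*, encoding sarcolipin, went from 0.589 ± 0.234 to 2.69 ± 1.13 CPM (log2 fold change 2.19 ± 0.37, FDR = 0.0076). The embryonic myosin gene *Myh3* (1.49, FDR = 0.0231), the acetylcholine receptor subunit gene *Chrna1* (0.87, FDR = 0.0146) and *Gadd45a* (0.78, FDR = 0.0237) rose too, in the same 8 muscles in which *Fbxo32* and *Trim63* were not called and *Fbxo30* fell. Of the list genes named as called, *Kbtbd13*, *Asb2*, *Rps27a*, *Uba6*, *Otud1*, *Cebpd*, *Cebpb*, *Foxo4*, *Foxo6*, *Smad3*, *Sln* and *Chrna1* stayed called in 8 of 8 fits that left out 1 mouse. The other named calls were lost in at least 1 of these fits.

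Over the 8 mice, *Fbxo32* and *Trim63* were compared with the remaining members and with 6 transcription factors in 29 correlations of log2 CPM, none of which passed the adjusted threshold. *Fbxo32* and *Trim63* gave a Pearson r of 0.55 and a Spearman rho of 0.64 (exact permutation p = 0.142 and 0.0962, adjusted 0.369 and 0.465). The positive values that stood out were between *Fbxo32* and *Trim54* (r = 0.83, rho = 0.74, exact permutation p = 0.0118 and 0.0458, adjusted 0.170 and 0.443) and between *Fbxo32* and *Fbxo31* (r = 0.76, rho = 0.81, exact permutation p = 0.0355 and 0.0218, adjusted 0.258 and 0.405). Without the 2 mice farthest from the median of *Fbxo32*, KL-/- replicates 2 and 4, these were 0.87 and 0.72. The strongest was negative, with *Myog* (r = −0.85, rho = −0.79, exact permutation p = 0.00781 and 0.0279, adjusted 0.170 and 0.405), and was −0.77 without the same mice. Among the 7 libraries of the common batch date r was −0.91 with *Myog*, 0.81 with *Trim54* and 0.69 with *Fbxo31*. After centering within genotype it was −0.92, 0.86 and 0.84, and the lowest adjusted permutation p of that family was 0.0590. The pairings permuted for it crossed the genotypes, so this p is only approximate.

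**Figure D5:**
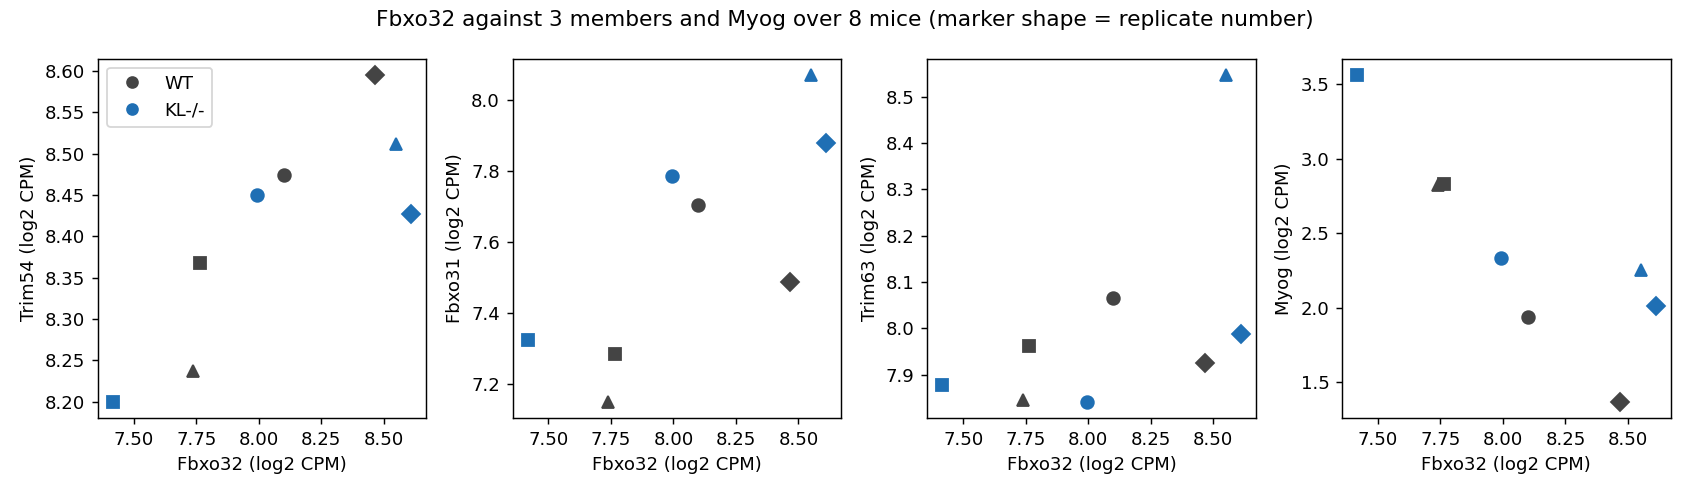
Log2 CPM of *Fbxo32* (x axes) against *Trim54*, *Fbxo31*, *Trim63* and *Myog* (y axes) in the 8 TA muscles, WT in gray and KL-/- in blue, with marker shapes for replicate numbers. *Fbxo32* runs upward with *Trim54* and *Fbxo31* and downward with *Myog* in both genotypes, and 1 KL-/- muscle stands alone at the top of the *Trim63* panel.

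*Trim63* correlated with *Foxo1* at r = 0.78 and rho = 0.29 (exact permutation p = 0.0735 and 0.501, adjusted 0.308 and 0.807). This value rests on KL-/- replicate 3, since r was −0.12 over the 7 libraries without it and −0.46 without WT replicate 1 and KL-/- replicate 3. With *Fbxo31* the r of *Trim63* was 0.68 (rho = 0.52, exact permutation p = 0.0316 and 0.197, adjusted 0.258 and 0.634), 0.41 over the 7 libraries and 0.29 without those 2 mice. As a description, the genes whose log2 CPM followed *Fbxo32* most closely over the 8 mice, among 9760 genes with a mean log2 CPM of at least 2, were *Rab3ip* (r = 0.97), *Coq10a* (0.97), *Etfa* (0.97), *Zfp3* (0.96) and *Clcn6* (0.95). For *Trim63* they were *Ino80c* (0.97), *Bcl2l1* (0.94), *Gstp1* (0.93), *Cc2d1a* (0.91) and *B4galt4* (0.91). By the same measure *Trim54* ranked 196th, *Fbxo31* 433rd and *Trim63* 1648th in likeness to *Fbxo32*.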

How the data were processed

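RNA of 8 TA muscles was sequenced from 100 ng per library, as mRNA by the methods and as total RNA by the labels. The deposited values are raw counts for 12551 genes, which the authors obtained with featureCounts from STAR alignments to mm10 after dropping poorly mapped reads. The annotation release and the use of strand are not given in the sources used here. The file's gene lengths equal the merged exons in 12549 of the 12549 genes that lie on 1 chromosome. Genotypes and replicate numbers come from the labels. Same-numbered WT and KL-/- mice did not deviate together, so the numbers were not used as pairs.

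Counts were analyzed in R 4.3.3 with edgeR 4.0.16 (default filter on low counts, TMM factors, quasi-likelihood test on genotype, Benjamini-Hochberg adjustment). Alternatives were RLE factors, library totals, no filter, a minimum of 10 counts in every library, DESeq2 1.42.0, limma-voom (limma 3.58.1), the edgeR 3 quasi-likelihood and likelihood ratio tests, the replicate number as a block, and each mouse left out in turn. The fit was tested on simulated data. Correlations were taken on log2 CPM (prior count 2) with exact two-sided permutation over 40320 pairings in Python 3.11.15 with numpy 2.4.6. For values centered within genotype the same pairings were used, and there the permutation is not exact. The correlations over the 7 libraries of the common batch date were added after seeing the data. The floor of 3 counts lay at 0.102 to 0.144 CPM.

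Named genes are all members, the called genes of each list (the 3 higher and 3 lower with the smallest p where over 5 were called), 6 transcription factors, and the 5 genes most like *Fbxo32* and *Trim63*. The members and lists were chosen with earlier results of these data known, so the counts over lists are descriptions. Of 35 named list genes, 9 overlap exons of another gene, as do *Fbxo32* and *Trim54* among the members, so that without strand their reads cannot be told apart. Promoters are from RefSeq, GRCm38.p6.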

Additional observations from a re-analysis of the deposited data

Results flagged for a closer look

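In 11 of 90 groups of 4 mice, 1 mouse stood farther from the others than the 95% limit of Dixon's gap ratio, where chance gives about 1 in 20. Among the ligases this was *Trim63*, for which KL-/- replicate 3 was the highest of its genotype at 374.0 CPM. *Asb2* was lowest in KL-/- replicate 2 at 346.3 CPM, and *Asb15* was lowest in KL-/- replicate 4 at 32.91 CPM. KL-/- replicate 2 was also the lowest KL-/- mouse for *Ube2m* at 103.1 CPM and for *Usp7* at 96.52 CPM, and the highest for *Myog* at 11.83 CPM. In WT muscle, *Otud1* was lowest in replicate 3 at 13.19 CPM and *Gadd45a* lowest in replicate 4 at 18.07 CPM. WT replicate 1 was the highest WT mouse for *Foxo3* at 16.0 CPM and for *Klf15* at 54.06 CPM, and WT replicate 2 was the highest for *Acvr1* at 25.72 CPM.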

How the results depend on the processing

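*Fbxo30* and *Fbxo40* kept their direction and an FDR under 0.05 in all 17 alternatives, and 2 or 3 members were called in each; the third was *Nedd4* with DESeq2 and *Fbxo31* without KL-/- replicate 2. The number of called genes over the table was 671 with the replicate block and 762 (without KL-/- replicate 3) to 2755 (without KL-/- replicate 2) with 1 mouse left out. With library totals the share of higher among called genes went from 52.4% to 18.8%. With the replicate block the calls per list were 2 for other ligases, 0 for the SCF core, 1 for E1 and E2 enzymes, 1 for deubiquitinases, 5 for transcription factors, 0 for TRAF6 partners, 0 for the BMP arm, 0 for substrates and 2 for denervation markers, and the blocked fit changed no call of a member. With library totals they were 0 for the SCF core, 4 for TRAF6 partners, 5 for the BMP arm and 2 for substrates. With 1 mouse left out they ranged from 2 to 7, 0 to 7, 2 to 9, 1 to 5, 5 to 10, 0 to 1, 0 to 4, 0 to 4 and 2 to 4 in the order of the block. The sign turned for *Traf6* with library totals (−0.115), with 10 counts in every library (−0.0009) and in some fits with 1 mouse left out (−0.0218 to 0.039). It turned likewise for *Trim63* (−0.0485 without KL-/- replicate 3, up to 0.2269), *Trim54* (−0.0807 to 0.0477), *Nr3c1* (library totals −0.079, otherwise −0.0088 to 0.072) and *Myog* (−0.1371 without KL-/- replicate 2, up to 0.51). *Trim63* with *Foxo1* gave r = −0.1205 over the 7 libraries. With the longest coding transcript as length, on unchanged counts, 2 members changed rank, and with 1 mouse left out 0 to 2 did. With library totals 1 correlation passed, the Spearman rho of *Fbxo32* with *Myog* (adjusted exact permutation p = 0.0331). The cause of these shifts was not tested. Counting error is close to the spread between mice for *Fbxo30* and *Traf6* and well below it for the other members.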
